A study of Mus musculus with 36 samples.

Results

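In the liver of mice under chronic intermittent hypoxia (IH), 10 genes known as targets of the hypoxia-inducible factors (HIF) were followed: Bnip3, Vegfa, Adm, Epo, Ankrd37, Ndrg1, Slc2a1, Pfkfb3, Aldoa and Pgk1. They were found by symbol, 10 genes of the 24066 whose symbol stood on a single row. The mice were wild-type C57BL/6JRj males, 16 weeks old, fed chow ad libitum, with light and dark phases of equal length, and no gene was altered in either group. The IH mice spent 4 weeks under 60 cycles of hypoxia per hour, with a nadir of 5% and a peak of 21% inspired O2, from ZT0 to ZT8 of each day (ZT0 is lights on). The control mice received matched air-to-air cycles. Livers were taken from 3 mice per condition at each of 6 time points (ZT0, ZT4, ZT8, ZT12, ZT16 and ZT20), which gave 36 libraries of whole liver RNA.

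HIF is a pair of an oxygen-regulated alpha subunit and a stable beta subunit (ARNT). In well oxygenated cells, prolyl hydroxylases mark the alpha subunit for degradation, and in hypoxia it accumulates and binds a short core sequence, ACGTG or GCGTG, near its target genes. Its targets raise oxygen delivery (Vegfa, Adm, Epo), glucose uptake and glycolysis (Slc2a1, Pfkfb3, Aldoa, Pgk1) and the removal of mitochondria (Bnip3), and in the adult liver Epo is a minor transcript that severe hypoxia can raise.

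The values are FPKM, a level scaled to transcript length and library size, so levels of different genes can be set side by side. Relative depth, read from the steps between the lowest values, lay between 0.779 and 1.31 of the median library, and the number of fragments behind a value is not known. FPKM summed to between 561964 and 626371 per library, except for 808274 in control ZT12 replicate 2, which stood apart from the other ZT12 control libraries in several of the 10 genes. The main results that rest on this library are given with and without it, except for the size and phase of the rhythms. The spread in each fit over all 36 libraries includes this library. Saa1, an acute-phase gene, was above 10000 FPKM in 3 libraries, namely control ZT12 replicate 2, IH ZT0 replicate 2 and control ZT16 replicate 3. Each held the lowest Bnip3 level of its group (65.3, 46.1 and 74.8 FPKM, in that order). The tissue label was borne out by 7 hepatocyte markers, whose summed level was 47246 to 72247.5 FPKM over all libraries, while the 7 endothelial markers summed to 32.1 to 55.6 FPKM. In bulk tissue, fewer cells of a type and less RNA per cell cannot be told apart.

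The promoters of the genes that rose, and of some that did not, are shown first because HIF core sequences lie in both. RefSeq promoter windows (250 bases before to 50 after a start, build GRCm38.p6, which is mm10) were at hand for 9 of the 10 genes, in 13 windows, and Ndrg1 had none. Each window is printed 5′ to 3′ on the strand of its gene, with ACGTG or GCGTG in capitals on either strand (so CACGT or CACGC as printed). The Bnip3 window is chr7:138909457-138909756 (minus strand), that of Aldoa is chr7:126799205-126799504 (minus strand, 1 of 3 windows of the gene), that of Ankrd37 is chr8:45999801-46000100 (minus strand) and that of Pgk1 is chrX:106186850-106187149 (plus strand).
Bnip3: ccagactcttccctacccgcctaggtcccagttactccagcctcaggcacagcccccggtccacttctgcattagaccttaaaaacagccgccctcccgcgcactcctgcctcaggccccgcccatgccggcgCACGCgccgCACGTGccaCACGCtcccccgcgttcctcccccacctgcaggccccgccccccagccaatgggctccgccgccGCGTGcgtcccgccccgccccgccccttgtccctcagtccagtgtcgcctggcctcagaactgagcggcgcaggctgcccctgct
Aldoa: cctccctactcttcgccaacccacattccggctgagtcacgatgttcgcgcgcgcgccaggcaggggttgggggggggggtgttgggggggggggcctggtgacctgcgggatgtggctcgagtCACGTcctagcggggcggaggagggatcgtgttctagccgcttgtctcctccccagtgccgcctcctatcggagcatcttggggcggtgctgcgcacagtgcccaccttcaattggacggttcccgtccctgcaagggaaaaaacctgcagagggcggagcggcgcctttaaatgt
Ankrd37: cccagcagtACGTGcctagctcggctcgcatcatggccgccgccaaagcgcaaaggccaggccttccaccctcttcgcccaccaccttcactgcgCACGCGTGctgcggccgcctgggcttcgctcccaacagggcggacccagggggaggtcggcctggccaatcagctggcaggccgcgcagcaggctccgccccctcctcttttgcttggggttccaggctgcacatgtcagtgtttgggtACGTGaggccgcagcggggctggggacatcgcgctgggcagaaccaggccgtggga
Pgk1: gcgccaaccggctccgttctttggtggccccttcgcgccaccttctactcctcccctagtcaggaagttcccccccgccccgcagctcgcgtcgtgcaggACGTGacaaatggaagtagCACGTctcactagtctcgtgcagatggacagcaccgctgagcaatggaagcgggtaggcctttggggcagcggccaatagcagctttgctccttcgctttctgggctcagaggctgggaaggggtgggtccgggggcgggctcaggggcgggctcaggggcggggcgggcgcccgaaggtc

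A core match was found in 11 of these 13 windows (not in 1 window each of Vegfa and Aldoa, which have others with a match) and in 43.8% of the 32851 windows of the table. The Aldoa window shown and another of its 3 windows overlap and hold the same match, which was counted in each. The Bnip3 window held 5 matches, at 117, 108, 107, 99 and 35 bases before the start, of which 2 overlap in the palindrome CACGTG. That palindrome, which is also the E-box bound by the clock factors BMAL1 and CLOCK, was in 7.15% of all windows and in 2 of the 13, that of Bnip3 and the second of Pfkfb3. At least 4 matches were found in 3.86% of all windows and in 3 of the 13, from Bnip3, Ankrd37 and Pfkfb3. Pgk1 and the Aldoa window shown had 2 matches and 1 match. A match is a description of letters in a window, and binding was not measured.

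Levels differed by orders of magnitude among the 10 genes. Over the control libraries the mean was 154 FPKM for Pgk1, 85.7 for Bnip3, 64.0 for Aldoa and 56.0 for Vegfa, followed by 5.51 for Ndrg1, 4.61 for Slc2a1 and 4.08 for Pfkfb3. Adm and Ankrd37 had means of 0.658 and 0.643 FPKM. The SDs over the 18 control libraries were 16.2 FPKM for Pgk1, 32.7 for Bnip3, 13.6 for Aldoa and 11.5 for Vegfa, then 6.12, 1.05 and 3.86 for Ndrg1, Slc2a1 and Pfkfb3, and 0.178 and 0.506 for Adm and Ankrd37. Neighbours in this order were farther apart than their SDs between Pgk1 and Bnip3 and between Vegfa and Ndrg1, and the other neighbours were not.

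Epo, the erythropoietin gene (chr5:137483020-137485816), was listed at 0 FPKM in 35 of 36 libraries. The exception was IH ZT4 replicate 1, at 0.0579 FPKM. A single low value in a gene with no other signal allows no comparison, and Epo was the only one of the 10 genes below the filter of a mean of 0.1 FPKM. The other 9 were tested within the 13215 genes that passed.

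**Figure D1:**
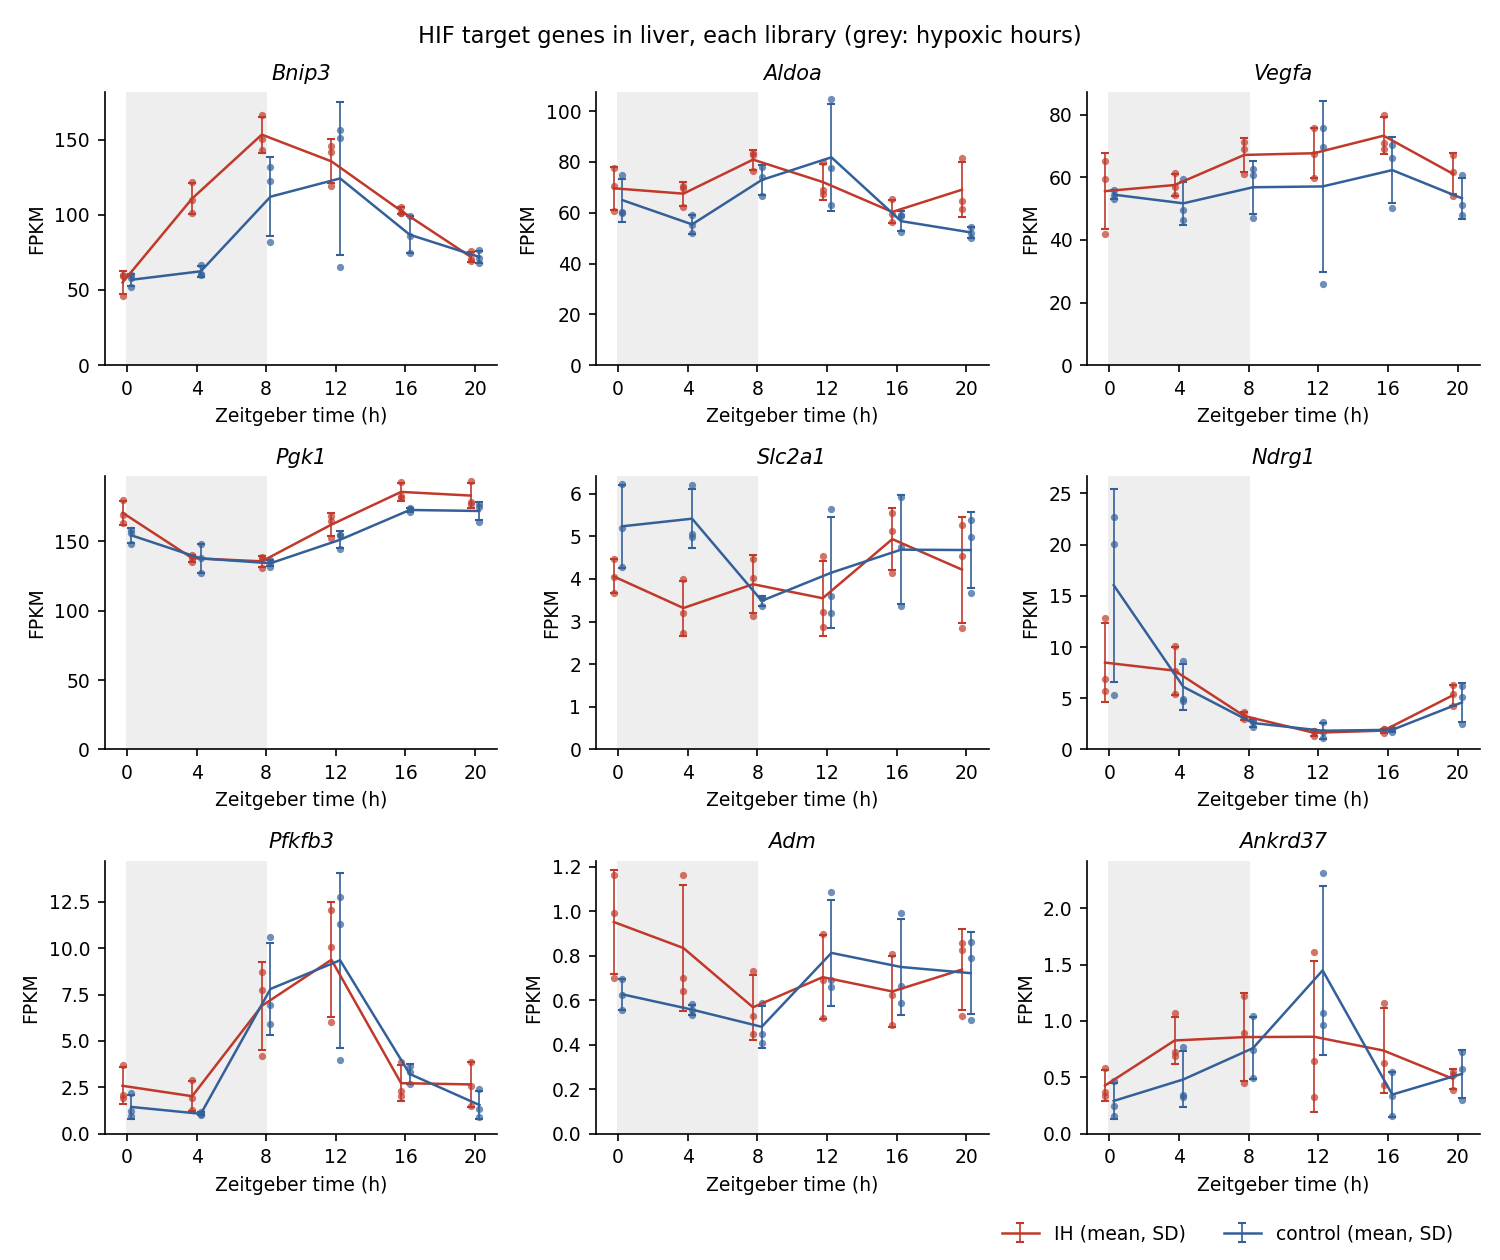
Level (FPKM, vertical axis from 0) of the 9 tested genes against Zeitgeber time, with 1 point per library, lines and bars for the mean and SD of 3 mice, IH in red and control in blue, and the hypoxic hours ZT0 to ZT8 in grey. Bnip3 of IH lay above control at ZT4 (101 to 122 against 60.0 to 66.8 FPKM), Pgk1 of both conditions had its low point at ZT4 and ZT8, and the low control point at ZT12 in Bnip3, Vegfa and Pfkfb3 is replicate 2.

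Inside the hypoxic window, 2 of the 9 genes were higher in IH, Bnip3 by 1.56-fold and Aldoa by 1.16-fold, and none was lower. Inside means ZT4 and ZT8, after 4 h and 8 h of cycling on the day, with 6 mice per condition and the time point as a factor, and the test was limma on log2(FPKM + 1) with Benjamini-Hochberg adjustment over 13215 genes. Of all genes tested, 6.05% were called higher and 1.93% lower in the same way. With libraries rescaled by the median ratio, 527 genes were called higher and 433 lower, in place of 799 and 255. These counts ran from 181 to 1055 higher and from 50 to 287 lower with each of the 12 libraries left out in turn, both lowest without IH ZT4 replicate 2. The median difference of the 9 genes was 0.19 on the log2 scale, and 8 of 9 were above 0, against a median of 0.04 over all genes, of which 64.8% were above 0.

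Bnip3 (chr7:138890836-138909506) encodes a mitochondrial outer membrane protein that recruits mitochondria to autophagosomes. At ZT4 its levels were 101, 110 and 122 FPKM in IH and 60.0, 66.8 and 60.5 FPKM in control. At ZT8 they were 166, 151 and 143 FPKM in IH and 81.9, 132 and 122 FPKM in control. Each IH library exceeded each control library at both time points, an order that 4.92% of all genes tested showed. The difference over both time points was 0.65 ± 0.11 (log2, SE, adjusted p = 0.0136, limma). It was 0.82 at ZT4 (SE 0.20, adjusted p = 0.0421) and 0.48 at ZT8 (SE 0.20, adjusted p = 0.96), in a fit over all 36 libraries. Without control ZT12 replicate 2 the ZT4 difference was again 0.82 (SE 0.13, adjusted p = 0.000909, limma). The call at ZT4 was made in 31 of 45 alternative settings and lost with no filter, with libraries scaled to a common sum and in 12 of the 36 fits that left out 1 library, with adjusted p up to 0.172. That over both time points was kept without each of the 12 libraries in turn, with differences from 0.57 to 0.72.

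At the onset of the window the levels of Bnip3 did not stand apart. At ZT0 they were 59.1, 46.1 and 59.6 FPKM in IH and 59.8, 52.2 and 58.2 FPKM in control, a difference of -0.05 (SE 0.20, adjusted p = 0.979). Counting ZT0 as inside lowered the pooled difference to 0.41 (adjusted p = 0.118). After the window, at ZT12, they were 146, 119 and 142 FPKM in IH and 156, 65.3 and 151 FPKM in control, so that 2 of the 3 control libraries were above all IH libraries. At ZT16 the IH libraries (101, 105 and 101 FPKM) again exceeded the control libraries (99.2, 86.2 and 74.8 FPKM), with a narrow gap, and at ZT20 the groups overlapped (69.4 to 75.9 in IH and 68.0 to 76.4 in control). Between ZT0 and ZT4 the mean in IH went from 54.9 to 110.8 FPKM, while that of control went from 56.8 to 62.4 FPKM and was 112.0 FPKM at ZT8.

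Aldoa (chr7:126795234-126800994) encodes the glycolytic enzyme aldolase A, the muscle form, whereas hepatocytes mainly use aldolase B. At ZT4 its levels were 62.1, 70.6 and 69.8 FPKM in IH and 59.2, 55.1 and 51.9 FPKM in control. At ZT8 they were 83.6, 82.7 and 76.4 FPKM in IH and 66.6, 74.2 and 78.0 FPKM in control. The groups were apart at ZT4 and overlapped at ZT8. The difference over both time points was 0.22 ± 0.06 (log2, SE, adjusted p = 0.0402, limma). Its call was lost in 18 of 26 alternative settings, with adjusted p up to 0.517. Among these were all 3 rescalings of the libraries (differences of 0.15 to 0.20) and 9 of the 12 fits that left out 1 library. Aldoa has near-identical retrogene copies, Aldoart1 and Aldoart2, with which it may share reads.

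The hepatocyte markers were higher in sum, and in part singly. The summed level of the 7 hepatocyte markers at ZT4 and ZT8 was 61380 to 65094 FPKM in IH and 47246 to 59990 FPKM in control, and 2 of the 7 (Apoa1 and Cyp2e1) were called higher, where 6.05% of all genes were. Alb, the most abundant of them, had a difference of 0.19 (SE 0.10, adjusted p = 0.215) and Fgb one of -0.26 (SE 0.14, adjusted p = 0.24). Sums of the Kupffer and leukocyte markers were 20.2 to 37.8 FPKM in IH and 24.5 to 53.8 FPKM in control, those of the neutrophil markers 0.360 to 1.70 and 0.620 to 7.75 FPKM, and those of the 2 detected of 5 erythroid markers 46.3 to 63.5 and 44.1 to 66.2 FPKM. The endothelial markers summed to 38.4 to 46.7 and 32.1 to 43.9 FPKM, the stellate markers to 54.9 to 77.3 and 39.6 to 63.8 FPKM, and the cholangiocyte markers to 2.91 to 5.78 and 2.99 to 5.99 FPKM, in IH and control, respectively. No marker outside the hepatocyte list was called inside the window, and the part of cell composition in the differences was not tested.

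The genes of oxygen delivery were not called. Vegfa (chr17:46016993-46032377), the main growth factor of blood vessels, had 61.3, 56.9 and 54.4 FPKM at ZT4 in IH and 49.5, 59.4 and 46.2 FPKM in control. At ZT8 it had 69.2, 71.3 and 61.0 FPKM in IH and 47.1, 62.8 and 60.6 FPKM in control, and the groups overlapped at ZT4 and ZT8. Its difference inside the window was 0.20 (SE 0.08, adjusted p = 0.141), with an unadjusted p of 0.0299 from limma. Adm (chr7:110627657-110629820), which encodes the vasodilator adrenomedullin, stayed near or below 1 FPKM. At ZT4 its levels were 0.643, 0.699 and 1.16 FPKM in IH and 0.556, 0.535 and 0.581 FPKM in control, so the groups were apart. They were apart at ZT0 as well, with 0.992, 0.698 and 1.16 FPKM in IH and 0.695, 0.558 and 0.625 FPKM in control, and overlapped at ZT8. The difference of Adm inside the window, 0.15 (SE 0.07, adjusted p = 0.189), did not pass, and the added pseudocount of 1 shrinks the difference of a gene at this level: with 0.1 it was 0.33.

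Among the genes of glucose uptake and glycolysis, Slc2a1 and Pgk1 showed no rise. Slc2a1 (chr4:119108745-119137330) encodes the glucose transporter GLUT1. At ZT4 it was lower in every IH library (4.01, 2.73 and 3.21 FPKM) than in every control library (4.97, 5.06 and 6.21 FPKM). At ZT8 the groups overlapped, with 4.46, 4.03 and 3.13 FPKM in IH and 3.36, 3.55 and 3.56 FPKM in control. The difference was -0.58 at ZT4 (SE 0.19, adjusted p = 0.119) and 0.11 at ZT8, and -0.23 over both (SE 0.13, adjusted p = 0.272). Without the 3 libraries with high Saa1, none of which was taken at ZT4, the SE of the ZT4 difference was 0.18 and the adjusted p was 0.0421.

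Pgk1 (chrX:106187100-106203699), phosphoglycerate kinase, was the most abundant of the 10 genes and among the least changed inside the window. At ZT0, ZT16 and ZT20 its IH libraries lay above control without overlap, as in 4.59%, 10.0% and 11.8% of all genes tested. Its ZT0 difference was 0.14 (SE 0.06, adjusted p = 0.593, limma). Inside the window its levels ran from 131 to 140 FPKM in IH (median 138) and from 127 to 148 FPKM in control (median 135), with the IH range inside that of control. The difference was 0.01 ± 0.04 (log2, SE, adjusted p = 0.905), and it was below 0 with each of 3 other scalings (-0.067 to -0.011). Reads of Pgk1 may be shared with Pgk1-rs7 and its pseudogenes. Pfkfb3 (chr2:11471430-11554071), which makes the fructose 2,6-bisphosphate that activates phosphofructokinase, had 1.26, 1.93 and 2.88 FPKM at ZT4 in IH and 0.997, 1.16 and 1.06 FPKM in control, with no overlap. At ZT8 the groups overlapped and the direction turned, with 4.20, 7.76 and 8.72 FPKM in IH and 6.92, 10.6 and 5.91 FPKM in control, and the difference over both time points was 0.17 (SE 0.20, adjusted p = 0.619).

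Of the remaining HIF targets, Ndrg1 and Ankrd37 were not called either. Ndrg1 (chr15:66929318-66969641), a stress-responsive gene of cell differentiation, had 10.1, 7.64 and 5.37 FPKM at ZT4 in IH and 4.74, 8.67 and 4.93 FPKM in control, which overlapped. At ZT8 its IH libraries (3.67, 2.97 and 3.15 FPKM) lay just above the control libraries (2.15, 2.87 and 2.72 FPKM). Its difference inside the window was 0.28 (SE 0.15, adjusted p = 0.252), and at ZT0 it was -0.70 (SE 0.34, adjusted p = 0.662), where 2 control libraries were at 22.7 and 20.1 FPKM and the third at 5.28 FPKM. Ankrd37 (chr8:45996908-46000414), an ankyrin repeat gene with several HIF core sequences in the promoter printed above, lay between 0.451 and 1.22 FPKM in IH and between 0.329 and 1.04 FPKM in control, a difference of 0.19 (SE 0.12, adjusted p = 0.33), and of 0.42 with a pseudocount of 0.1.

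Counted over the 9 genes, IH lay above control without overlap in 1 gene at ZT4 and ZT8 together (Bnip3), and in 4 at ZT4 (Adm, Bnip3, Pfkfb3 and Aldoa), where 26.7% of all genes tested showed the same order and 7.79% the opposite order shown by Slc2a1. At ZT0 they were Adm and Pgk1 (4.59% of all genes), at ZT8 Bnip3 and Ndrg1 (11.0%), at ZT16 Bnip3 and Pgk1 (10.0%), at ZT20 Aldoa and Pgk1 (11.8%), and at ZT12 none in either direction. By the test at each time point, Bnip3 at ZT4 was the only call among the 9 genes, where 1.16% of all genes tested were called at ZT4, 0.00757% at ZT8, 0.772% at ZT12, 0.00757% at ZT16 and 0% at ZT0 and ZT20.

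**Figure D2:**
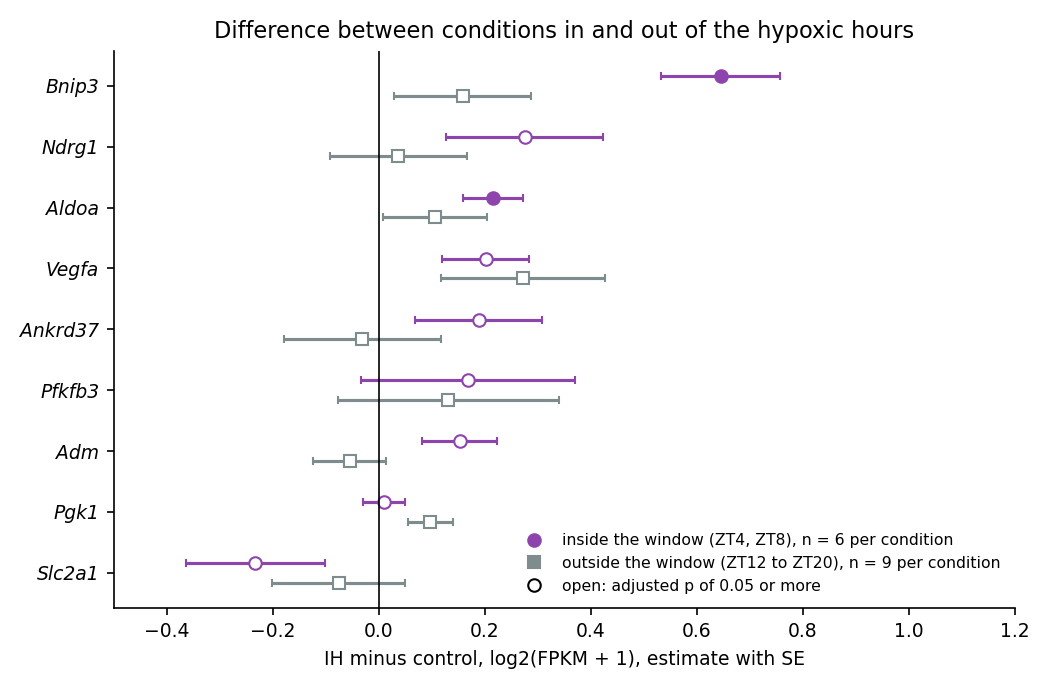
Difference between IH and control (horizontal axis, log2(FPKM + 1), estimate with SE) for the 9 tested genes inside (circles, 6 mice per condition) and outside the hypoxic window (squares, 9 mice per condition), with filled symbols for an adjusted p under 0.05. Bnip3 and Aldoa are the filled symbols inside the window, at 0.65 and 0.22, and none is filled outside.

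Outside the window (ZT12, ZT16 and ZT20, 9 mice per condition) no gene was called, none of the 9 and 0% of all genes tested by limma. At an unadjusted p under 0.05 there were 1 of the 9 genes, Pgk1, and 867 of all genes (6.56%). Pgk1 was at 153 to 194 FPKM in IH (median 179) and at 144 to 177 FPKM in control (median 171), overlapping ranges, with a difference of 0.10 ± 0.04 (log2, SE, adjusted p = 0.755). The difference of Bnip3 fell to 0.16 (SE 0.13, adjusted p = 0.789), and without control ZT12 replicate 2 it was 0.04. The difference of Vegfa was 0.27 (SE 0.15, adjusted p = 0.77), larger than inside the window, and 0.13 without that library, in which Vegfa was at 25.8 FPKM beside 75.8 and 69.7 FPKM in the other control libraries of ZT12. The remaining 6 genes ran from -0.08 for Slc2a1 to 0.13 for Pfkfb3, and without that library from -0.11 for Slc2a1 to 0.08 for Aldoa, with Pfkfb3 at 0.0022.

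Whether the difference between the conditions itself differed between the hypoxic hours and the rest of the day was tested over all 36 libraries. None of the 9 genes was called, where 0.242% of all genes were. Bnip3 had the smallest p of the 9, with an inside minus outside difference of 0.49 (SE 0.18, adjusted p = 0.231, limma). Without control ZT12 replicate 2 it was 0.62 (SE 0.12, adjusted p = 0.0126, limma). Without the 3 libraries of high Saa1, this one among them, it was 0.66 (SE 0.11, adjusted p = 0.00648, limma). Bnip3 was called in 2 of 46 alternative settings, each of which left out control ZT12 replicate 2. Adm followed with 0.21 (SE 0.11, adjusted p = 0.41). Aldoa had 0.11 (SE 0.12, adjusted p = 0.755) and Pgk1 -0.09 (SE 0.06, adjusted p = 0.542). Without control ZT12 replicate 2 these differences were 0.17 for Adm, 0.16 for Aldoa and -0.08 for Pgk1, and none was called.

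Some of the genes changed with the time of day. Within IH, levels inside the window exceeded those outside for Bnip3 (0.38, SE 0.13, adjusted p = 0.0264) and Ndrg1 (0.74, SE 0.22, adjusted p = 0.0104) and fell short of them for Pgk1 (-0.37, SE 0.04, adjusted p = 1.3e-07). Of all genes tested, 21.3% were higher and 12.0% lower inside than outside in IH. Within control, where the same hours carry no hypoxia, Pgk1 was also lower (-0.28, SE 0.04, adjusted p = 3.07e-05), Ndrg1 had 0.50 (SE 0.22, adjusted p = 0.109) and Bnip3 -0.11 (SE 0.13, adjusted p = 0.595), among 12.4% of all genes higher and 6.75% lower. Without control ZT12 replicate 2, Bnip3 was lower inside than outside in control, by -0.25 (SE 0.09, adjusted p = 0.0394). The contrasts within IH and within control compare different libraries. Their SEs share the spread of the same fit over all 36 libraries, which includes control ZT12 replicate 2.

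**Figure D3:**
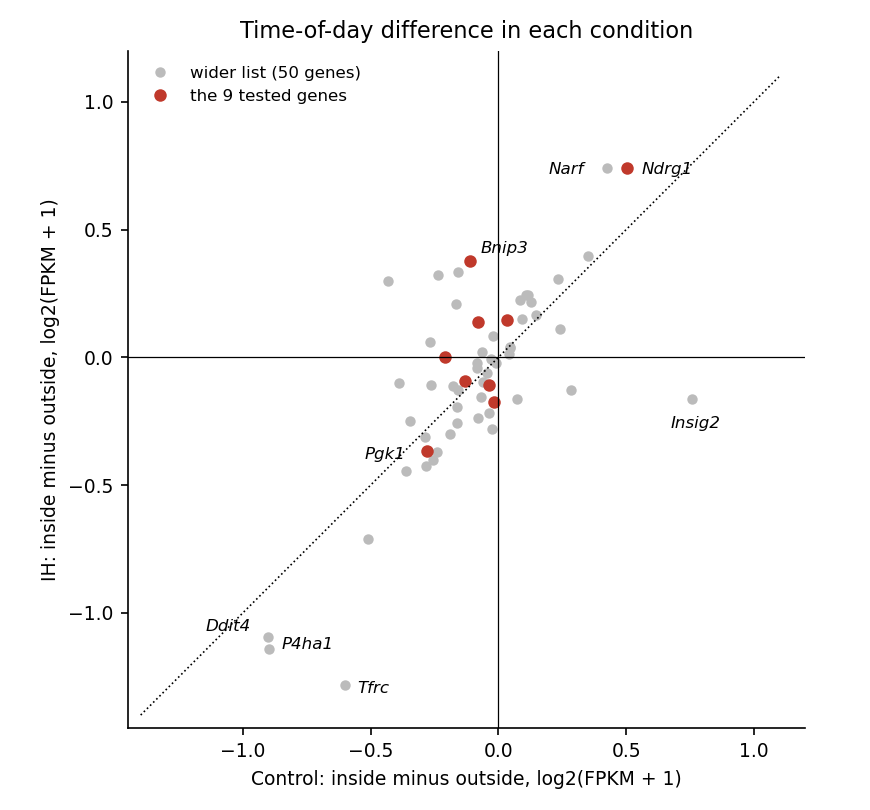
Difference between inside (ZT4 and ZT8) and outside the window (ZT12 to ZT20) in control (horizontal axis) and in IH (vertical axis), both as log2(FPKM + 1), for the 9 tested genes in red and the 50 of a wider list in grey, with the dotted line where both are equal. Bnip3 lies at -0.11 in control and 0.38 in IH, Pgk1 is below 0 in both (-0.28 and -0.37), and Insig2 lies farthest below the line (0.76 and -0.16).

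A cosine with a period of 24 h, fitted within each condition and called at a nominal P of 0.01 or less, was called for 5 of the 9 genes in IH (Bnip3, Ndrg1, Pfkfb3, Pgk1 and Vegfa), where 39.9% of all genes were called. In control it was called for 4 (Bnip3, Ndrg1, Pfkfb3 and Pgk1), where 20.0% of all genes were. Bnip3, Ndrg1, Pfkfb3 and Pgk1 were called in both conditions in all 29 alternative settings, whereas Vegfa in IH stood just inside the threshold and was called in 5 of 29. In control, Ankrd37 was called in 9, Aldoa in 4 and Vegfa in 1 of the 29. The difference between the rhythms of the 2 conditions was called for none of the 9 genes and for 0% of all genes, with 1 of the 9 and 649 of all genes at an unadjusted p under 0.05.

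Ndrg1 and Pfkfb3 had the largest rhythms, in opposite parts of the day. The fitted peak of Ndrg1 was at 1.15 h after ZT0 in IH and 0.651 h in control, with a peak 3.98-fold and 4.76-fold above the trough. That of Pfkfb3 was at 10.8 and 11.3 h, with 2.94-fold and 4.93-fold. Pgk1 peaked at 18.4 and 18.3 h with 1.41-fold and 1.31-fold, so its low point fell between ZT0 and ZT8 in both conditions. These hours carry hypoxia in IH only.

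Bnip3 peaked at 10.0 h in IH and 11.7 h in control, an IH minus control difference of -1.69 h, with a peak 2.58-fold and 2.05-fold above the trough. The test of the difference between these rhythms gave an unadjusted p of 0.0582 (adjusted p = 0.92). In IH the highest mean was at ZT8 (153 FPKM) and in control at ZT12 (124 FPKM). The control mean and the fitted control rhythm include ZT12 replicate 2, at 65.3 FPKM. The 2 highest control libraries at ZT12 (156 and 151 FPKM) lay within the range of IH at ZT8 (143 to 166 FPKM).

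To place these genes among other HIF targets, 58 further genes known as targets were taken, of which 50 passed the filter. Inside the window 7 of 50 were called, 4 higher and 3 lower, where 6.05% of all genes tested were called higher and 1.93% lower, and the median difference was 0.02 on the log2 scale, beside 0.04 over all genes tested. The 4 that rose were Pdk1, the kinase that turns off pyruvate dehydrogenase, Mif, a macrophage cytokine, Gpi1, the glycolytic glucose-6-phosphate isomerase, and Narf, a nuclear prelamin-binding protein. The 3 that fell were Ldha, the lactate dehydrogenase subunit, Tfrc, the transferrin receptor, and Insig2, which holds back the maturation of the sterol factor SREBP. Both directions held genes of carbohydrate use: Gpi1 and Pdk1 rose and Ldha fell. The other glycolytic genes of the list that passed the filter (Hk1, Pfkl, Pfkp, Pfkfb4, Aldoc, Tpi1, Gapdh, Pgam1 and Eno1) were not called, and ran from -0.13 for Pgam1 (SE 0.04, adjusted p = 0.0786) to 0.37 for Aldoc (SE 0.11, adjusted p = 0.0544).

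Pdk1 was the counterpart of Bnip3 in size. At ZT4 it had 18.2, 16.3 and 14.6 FPKM in IH and 9.45, 9.12 and 9.30 FPKM in control, and at ZT8 24.2, 24.0 and 18.1 FPKM in IH and 10.0, 16.2 and 16.4 FPKM in control. All IH libraries exceeded all control libraries at both time points, an order that 4.92% of all genes tested showed. The difference was 0.69 (SE 0.11, adjusted p = 0.0118, limma). After the window, at ZT16, Pdk1 was at 15.6, 17.0 and 22.3 FPKM in IH and at 13.7, 13.1 and 10.8 FPKM in control. There the IH libraries were again all above control, as in 10.0% of all genes tested. Gpi1 was at 55.5 to 69.2 FPKM in IH and at 43.9 to 57.8 FPKM in control inside the window, a difference of 0.30 (SE 0.05, adjusted p = 0.0144). Gpi1 was higher in every IH library than in every control library at ZT16 too, as were 10.0% of all genes tested. Its levels there were 90.7, 83.2 and 101 FPKM against 61.3, 61.7 and 58.4 FPKM. This difference of 0.59 was the call of the whole ZT16 comparison (SE 0.09, adjusted p = 0.00467, limma). It was kept in 41 of 45 alternative settings and lost with the common sum, with the median ratio, without IH ZT16 replicate 3 and without control ZT16 replicate 3, with adjusted p up to 0.169. Its difference outside the window, 0.38 (SE 0.06), had an adjusted p of 0.123.

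Mif rose by 0.36 (SE 0.07, adjusted p = 0.0224), from 172 to 260 FPKM in control to 233 to 304 FPKM in IH, and Narf by 0.28 (SE 0.07, adjusted p = 0.0359), from 5.11 to 12.4 FPKM to 7.89 to 13.5 FPKM, ranges that overlap because they span both time points. Ldha, one of the best known HIF targets, fell by 0.38 on the log2 scale (SE 0.07, adjusted p = 0.015). It was at 337, 289 and 325 FPKM in IH at ZT4 and at 461, 368 and 459 FPKM in control, and at 221, 251 and 270 FPKM in IH at ZT8 and at 306, 321 and 309 FPKM in control. Ldha was thus lower in all IH libraries at both time points. At ZT4, 7.79% of all genes tested showed this order, and the share at both time points was not counted. Tfrc fell by 0.40 on the log2 scale (SE 0.07, adjusted p = 0.0155, limma), from 1.84 to 2.74 FPKM in control to 1.31 to 1.73 FPKM in IH.

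Insig2 showed the largest fall of the list. At ZT4 it was at 85.6, 70.7 and 60.1 FPKM in IH and 119, 105 and 111 FPKM in control, and at ZT8 at 22.2, 20.7 and 17.3 FPKM in IH and 52.7, 34.7 and 33.1 FPKM in control. The IH libraries were below all control libraries at both time points, an order counted over all genes tested at ZT4 alone (7.79%). The difference was -0.79 (SE 0.12, adjusted p = 0.00982, limma). Over all 36 libraries, Insig2 was the 1 gene of the 50 whose inside minus outside difference was called (-0.92, SE 0.20, adjusted p = 0.0454, limma), a call kept in 18 of 46 alternative settings. Without control ZT12 replicate 2, Tfrc (-0.63, SE 0.16, adjusted p = 0.0432, limma) and Narf (0.44, SE 0.10, adjusted p = 0.0266, limma) were called beside Insig2. The share of all genes called in that setting was not counted. Insig2 had a strong rhythm in both conditions, with fitted peaks at 22.5 h in IH and 0.0127 h in control and a peak 6.45-fold and 5.98-fold above the trough.

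**Figure D4:**
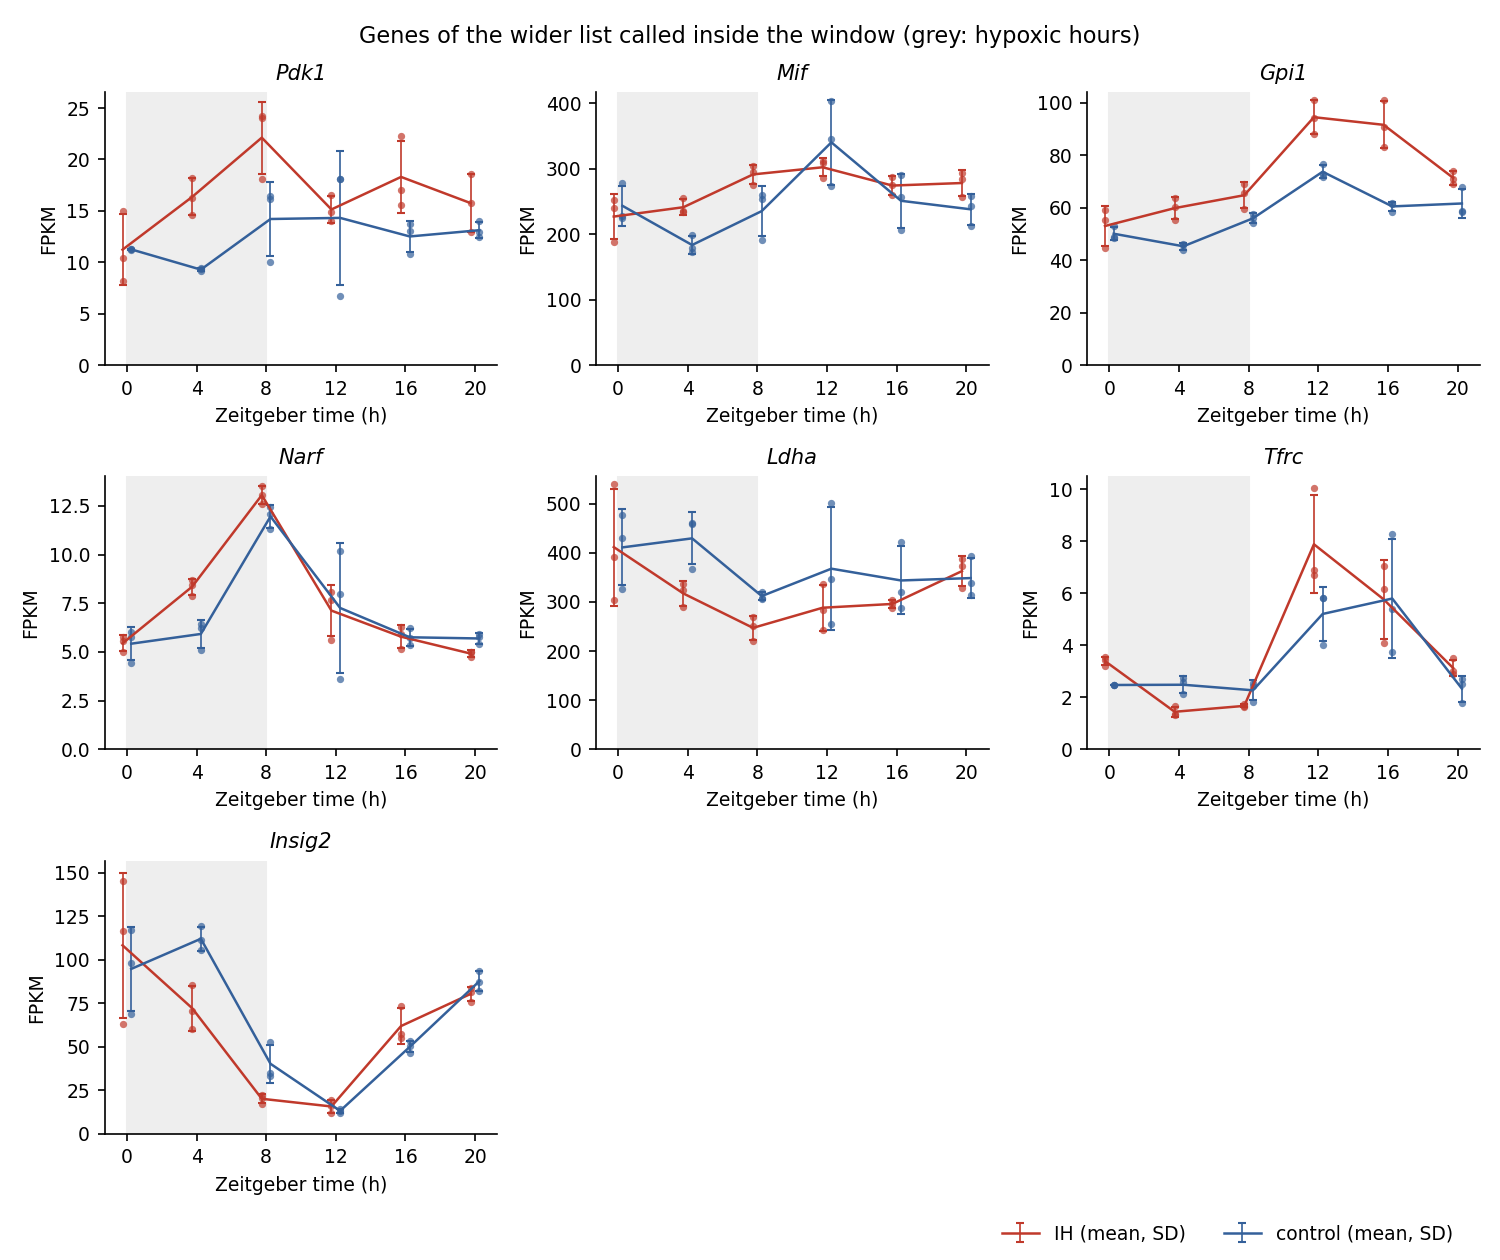
Level (FPKM, vertical axis from 0) of the 7 genes of the wider list called inside the window against Zeitgeber time, with 1 point per library, lines and bars for the mean and SD of 3 mice, IH in red and control in blue, and the hypoxic hours in grey. Pdk1 of IH lay above control and Ldha, Tfrc and Insig2 below it at ZT4, where Insig2 was at 60.1 to 85.6 FPKM in IH and 105 to 119 FPKM in control.

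Outside the window none of the 50 genes was called by limma, with 5 at an unadjusted p under 0.05. Between the hours of the day, 19 of 50 were called inside against outside in IH (4 higher and 15 lower), where 21.3% of all genes were higher and 12.0% lower. In control 15 were called (3 higher and 12 lower), where 12.4% of all genes were higher and 6.75% lower. P4ha1, a collagen prolyl hydroxylase, was lower inside the window by -1.14 in IH and -0.90 in control, and Ddit4, an inhibitor of mTORC1, by -1.10 and -0.90. A cosine was called for 32 of 50 in IH, where 39.9% of all genes were called, and for 13 in control, where 20.0% were. The count in control was 21 without control ZT12 replicate 2 and 23 without the 3 libraries of high Saa1. The share of all genes called in these 2 settings was not counted, so the rise cannot be read as one of the list.

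The genes most like each of the 10 in pattern, by Pearson's r of log2(FPKM + 1) over the 36 libraries, were taken for those with a mean of at least 1 FPKM. The libraries share time of day and condition, so r is a description. Bnip3 was followed most closely by Gys2, the liver glycogen synthase (r = 0.949). Vegfa was followed by Uqcrc2 (0.907) and Ak3 (0.906), both mitochondrial, Ndrg1 by Mcu (0.900) and Dcdc2a (0.886), and Pgk1 by Cml5 (0.921) and the clock repressor Cry1 (0.892). Pfkfb3 had Coq10b (0.872) and Slc19a1 (0.869), Aldoa had Polr2c (0.856) and Prpsap1 (0.839), and Slc2a1 had Shroom3 (0.717) and Phldb3 (0.697). Among the 9 genes themselves r ran from -0.61 for Ndrg1 and Pfkfb3 to 0.74 for Bnip3 and Pfkfb3.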

How the data were processed

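Polyadenylated RNA of 36 livers was sequenced by the authors in stranded libraries with 100-bp paired reads. The deposited values are FPKM per gene symbol and library, made by the authors with TopHat2 2.1.1 on mm10 and Cufflinks 2.2.1 (versions from the submitters' processing notes); the gene annotation and any scaling between libraries are not given in the sources used here. Each condition had a table of its own, and both tables label their columns alike, so a table's condition was read from its name, which the means drawn by the study for named genes match. All columns were used.

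Of 24346 symbols, 280 stood on more than 1 row and were left out, none of them among the genes described. Tests used limma 3.58.1 in R 4.3.3 with an intensity trend on log2(FPKM + 1) where the mean over all libraries reached 0.1 FPKM (13215 genes), with a Benjamini-Hochberg adjusted p of 0.05 as the threshold and a nominal P of 0.01 for rhythms. Levels inside (ZT4 and ZT8) and outside the window (ZT12 to ZT20) were compared with time point as a factor over 12 and 18 libraries. The difference of these differences, single time points and inside minus outside within a condition came from a fit of 12 group means over all libraries. A fold is 2 to the power of the log2 difference and understates changes of low genes. ZT0, the onset of the window, was kept apart from both and tried as inside.

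FPKM were not turned into counts, so no count test was used. Each mouse is a separate animal. Residuals of same-numbered IH and control mice correlated by 0.05 on average (6 of 18 pairs over 0.1), so the numbers were not used as pairs. The genes, the wider list and the marker lists were chosen with earlier results of these data known. Named from the wider list is every gene called inside, outside or in the difference between them, while P4ha1 and Ddit4 were picked with their values in view, and the glycolytic genes that were not called are given as a group. The 2 genes most correlated with each gene are named as a description. Figures were drawn with matplotlib. Alternatives were a pseudocount of 0.1, other filters, 3 scalings, the replicate block, repeated symbols summed, other windows, other rhythm tests and leaving out each library. Leaving out the 3 libraries of high Saa1 was added after the data were seen. Metabolites, proteins and physiology were not analysed here.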

Additional observations from a re-analysis of the deposited data

Results flagged for a closer look

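Insig2, a gene of the wider list, was picked out because its difference between the conditions itself differed between the hypoxic hours and the rest of the day: the inside minus outside difference of IH minus control was -0.92 on the log2 scale (SE 0.20, adjusted p = 0.0454, limma). The difference was -0.79 inside the window and 0.13 outside it (SE 0.09, adjusted p = 0.785). It was below 0 in all 46 alternative settings, from -0.99 to -0.61, with adjusted p from 0.0174 to 0.272. Insig2 fell from a mean of 112.0 FPKM at ZT4 to 40.2 FPKM at ZT8 in control and from 72.2 to 20.1 FPKM in IH, so the hypoxic hours coincide with a steep daily decline of this gene. The IH minus control difference of its fitted peaks was -1.47 h. The test of the difference between the rhythms gave an unadjusted p of 0.0963 (adjusted p = 0.92, limma). The part of a shift of the decline in the difference inside the window was not tested.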

How the results depend on the processing

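Bnip3 kept its direction inside the window in all 26 alternatives (0.41 to 0.82) and its call in 24, losing it with ZT0 included and at ZT8 alone. Aldoa kept its direction in all 26 (0.15 to 0.28) and its call in 8. No member was called outside the window under any alternative. Of the 9 genes, 1 was called inside, in place of 2, with no filter, with each of the 3 scalings (common sum, median ratio and quantile), with the group-means fit of all 36 libraries and at ZT4 alone, and 0 with ZT0 included and at ZT8 alone. Depth limits Adm, Ankrd37 and Epo most, all near or below 1 FPKM, and 3 mice per group leave single time points with wide errors. Where a cause of a change is not named, the cause was not tested.

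The replicate number as a block (replicate block) gave 1 of the 9 genes called inside, Aldoa being lost (0.22, adjusted p = 0.0584), and 0 genes of the wider list called in the inside minus outside difference. It changed no other count by over 1.5 times.

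For the wider list inside the window the count went from 7 to 3 in the group-means fit and to 0 with ZT0 included or at ZT8 alone. Outside the window it went from 0 to 1 in the group-means fit and at a nominal P of 0.01. For its inside minus outside difference it went from 1 to 2 with a pseudocount of 0.1, the median ratio and quantile scaling, to 0 with no filter and with ZT0 counted as inside, and to 4 without the libraries of high Saa1. At ZT4 it went from 1 to 2 with a filter at 1 FPKM, to 0 with each scaling and to 9 without the libraries of high Saa1. At ZT12 it went from 0 to 1 with a filter at 1 FPKM and with quantile scaling, and at ZT16 from 1 to 0 with the common sum and the median ratio. Its rhythms in control went from 13 to 23 without the libraries of high Saa1. Under the alternatives, the calls among all genes were counted only for the comparison inside the window.

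Of the 9 genes at ZT4, 0 were called with no filter and with the common sum, and 2 without the libraries of high Saa1, where 1 was called in the inside minus outside difference. Within control, inside minus outside calls went from 1 to 2 with a pseudocount of 0.1 and with median ratio and quantile scaling, and to 3 without the libraries of high Saa1. All genes called higher and lower inside numbered 799 and 255, and 473 and 141 with no filter, 491 and 250 with the common sum, 527 and 433 with the median ratio, 524 and 429 with quantile scaling, 215 and 54 in the group-means fit, 34 and 8 with ZT0 included, 531 and 198 at ZT4 alone and 0 and 0 at ZT8 alone.

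Directions turned only for values that were not called. Inside, Pgk1 was -0.011, -0.050 and -0.067 with the common sum, median ratio and quantile scaling, Slc2a1 was 0.11 and Pfkfb3 -0.17 at ZT8 alone, and Ndrg1 was -0.050 with ZT0 included. Outside, Ankrd37 was 0.011 with a pseudocount of 0.1, Ndrg1 was -0.00083 with the median ratio, -0.00015 with quantile scaling and -0.028 without the libraries of high Saa1, and Bnip3 was -0.0098 without those libraries. In the inside minus outside difference, Pfkfb3 was -0.025 with the common sum, Ndrg1 was -0.087 with ZT0 counted as inside, and Vegfa was 0.14 without the libraries of high Saa1.

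With each library left out in turn, 1 to 2 of the 9 genes were called inside, 0 to 1 in the inside minus outside difference (1 without control ZT12 replicate 2), 0 to 1 at ZT4 and 1 to 2 within control. For the wider list 0 to 1 were called outside, 0 to 3 in the inside minus outside difference, 0 to 4 at ZT4, 0 to 10 at ZT12 (10 without control ZT12 replicate 3), 0 to 1 at ZT16 and 11 to 21 for rhythms in control (21 without control ZT12 replicate 2). Directions turned within -0.014 to 0.033 for Pgk1 inside, -0.11 to 0.065 for Ankrd37 and -0.063 to 0.10 for Ndrg1 outside, and -0.16 to 0.092 for Vegfa and -0.061 to 0.19 for Pfkfb3 in the inside minus outside difference.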
